A study of Mus musculus with 12 samples.

Results

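Mcpt1, Mcpt2, Mcpt4, Cpa3 and Kit were the 5 genes examined, taken by gene symbol from a deposited table of 16942 mouse genes measured by RNA-seq in small intestine. They were chosen by their levels over the 4 groups, which were already known, so those levels are given as a description. No p-value is given for them, and their place among the calls of tests over all genes supports nothing here. The 12 libraries were made from total RNA and fell into 4 groups of 3. All mice were of the outbred strain ICR. The group AOS0 received neither busulfan nor AOS, AOS10 received AOS alone, B+A0 received busulfan alone and B+A10 received both. The labels give AOS as a level of 0 or 10 with no unit and do not spell the abbreviation out. The sources used here state no age, sex, busulfan dose or sampling time. Nor do the labels say whether the 3 replicates of a group were separate animals, and a p-value therefore reflects the spread between samples that may be technical.

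Mast cells are granule-filled immune cells that arise from bone marrow progenitors and finish their maturation inside tissues. Their granules hold proteases, which are released together with other mediators when the cell is activated, for example through the IgE receptor. In the mouse, the chymase-type serine proteases encoded by Mcpt1 and Mcpt2 mark mast cells of the mucosa, whereas the chymase encoded by Mcpt4 is best known from connective tissue mast cells. Cpa3 encodes a carboxypeptidase stored in mast cell granules. Kit is the receptor tyrosine kinase for stem cell factor, the product of Kitl, on which mast cells depend for survival. Kit is also made by blood progenitors and by the interstitial cells of Cajal, the pacemaker cells of the gut wall. Busulfan is an alkylating drug that is used to deplete the bone marrow.

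Mcpt1, Mcpt2 and Mcpt4 lie in 1 cluster on chromosome 14. In the RefSeq annotation of GRCm38.p6, Mcpt1 (gene ID 17224) spans chr14:56017964-56020391 on the forward strand. Mcpt4 (gene ID 17227) spans chr14:56059744-56062310 on the reverse strand. Mcpt2 (gene ID 17225) has a RefSeq span of chr14:56021584-56044635 on the forward strand. That span covers Mcpt9, on the reverse strand at chr14:56026864-56030495, although the exons of the GENCODE models of these genes overlap in 0 pairs. Cpa3 (gene ID 12873) spans chr3:20215616-20242209 on the reverse strand, and Kit (gene ID 16590) spans chr5:75574987-75656722 on the forward strand. Because members of a protease family can share reads, the transcripts of Mcpt1, Mcpt2 and Mcpt4 were compared, and no window of 50 bases was shared among them. Mcpt4 shared 7 of its 1059 windows of 50 bases with Mcpt9 and 0 windows of 100 bases.

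The 250 bases before the annotated start are shown for the proteases with a RefSeq promoter entry, since these genes moved together across the libraries. Each is read 5′ to 3′ on the strand of its gene: Mcpt1 from chr14:56017714-56017963 on the forward strand, Mcpt4 from chr14:56062311-56062560 on the reverse strand and Cpa3 from chr3:20242182-20242431 on the reverse strand, all from RefSeq on GRCm38.p6. Capitals mark matches on either strand to GATAA, the core recognised by GATA factors, and to TATAAA, the TATA box core. On the opposite strand these read TTATC and TTTATA.
Mcpt1: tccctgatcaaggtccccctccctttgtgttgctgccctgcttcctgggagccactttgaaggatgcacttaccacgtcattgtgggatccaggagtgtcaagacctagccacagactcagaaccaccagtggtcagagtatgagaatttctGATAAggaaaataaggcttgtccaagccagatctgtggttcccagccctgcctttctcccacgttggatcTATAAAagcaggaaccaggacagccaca
Mcpt4: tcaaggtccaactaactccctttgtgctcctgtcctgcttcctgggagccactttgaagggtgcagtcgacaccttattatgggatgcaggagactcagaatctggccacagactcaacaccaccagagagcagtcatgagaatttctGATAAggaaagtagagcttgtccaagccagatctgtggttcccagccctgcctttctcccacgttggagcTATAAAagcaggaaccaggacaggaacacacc
Cpa3: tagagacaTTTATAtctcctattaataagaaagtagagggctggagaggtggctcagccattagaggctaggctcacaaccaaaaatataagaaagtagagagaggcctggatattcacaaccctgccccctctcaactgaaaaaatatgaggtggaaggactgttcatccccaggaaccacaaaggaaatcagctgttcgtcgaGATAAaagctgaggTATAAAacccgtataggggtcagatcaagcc

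The upstream sequences of Mcpt1 and Mcpt4 were identical at 207 of 254 aligned positions (81.5%) and shared an unbroken run of 53 bases. Mcpt1 and Cpa3, aligned in the same way, were identical at 45.2%. In Mcpt1, GATAA lay 98 bases and TATAAA 28 bases before the start. In Mcpt4 the same motifs lay 102 and 32 bases before it. Cpa3 held GATAA at 45 bases and TATAAA at 31 bases, with a further TATAAA match on the opposite strand at 242 bases. The Cpa3 distances are counted from a start at position 20242181, as in GENCODE. That start lies inside the RefSeq gene span, which reaches 20242209. Over 27025 RefSeq promoters of the same length, 23% held GATAA and 13% held TATAAA. Of 2 RefSeq promoter entries for Kit, the first was read. Its window held neither motif and had a GC content of 70.8%, against 51.6% for Mcpt1. The window of Mcpt9, a protease gene of the cluster, held neither motif as well. That of the chymase gene Cma1 held GATAA on the opposite strand at 194 bases and no TATAAA. These matches describe letters in a window and say nothing of binding.

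The libraries held between 13560232 and 16818245 counts, and 12329 genes passed the filter on low counts. In a principal component analysis of these genes, B+A0 replicates 2 and 3 stood apart on the first component, at 25.9 and 38.7 against 6.25 for B+A0 replicate 1. The results below are therefore also given without them where that matters, which leaves B+A0 replicate 1 alone in its group. The libraries carried epithelial markers at high levels: 6 of them, including Epcam, Vil1 and Fabp2, summed to 5617 to 8510 CPM, the counts scaled to a common library size. Markers of the muscle wall were near 0, with 7 of 8 smooth muscle genes under the filter and Acta2, the smooth muscle actin, at 0 to 16 counts.

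The proteases were markedly lower in B+A0 than in AOS0. Mcpt1 CPM was 32.1, 39.1 and 85.4 in AOS0 and 6.40, 6.97 and 10 in B+A0. The groups did not overlap, and AOS0 replicate 3 was well above the other libraries of its group. Mcpt2, the neighbouring mucosal chymase gene, was at 9.71, 15.3 and 33.2 CPM in AOS0 and at 2.64, 2.44 and 3.82 CPM in B+A0. Again AOS0 replicate 3 was the highest library and the groups stood apart. The fitted log2 fold change of B+A0 against AOS0 was -2.74 (SE 0.47) for Mcpt1 and -2.70 (SE 0.52) for Mcpt2, that is 6.68-fold and 6.5-fold lower.

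Mcpt4 was measured from far fewer reads. Its counts were 17, 35 and 68 in AOS0 and 5, 2 and 3 in B+A0, which gave 1.10, 2.30 and 5.03 CPM against 0.314, 0.119 and 0.182 CPM. Pooled over each group, 120 counts stood against 10, a ratio of 0.0749 with an exact 95% counting interval of 0.035 to 0.143. Cpa3 had 4, 16 and 31 counts in AOS0 and 1, 2 and 2 in B+A0. Its pooled ratio was 0.0881, with an interval of 0.0274 to 0.219. These intervals cover counting error only. The fitted log2 fold changes were -3.72 (SE 0.62) for Mcpt4 and -3.44 (SE 0.85) for Cpa3. The carboxypeptidase and the third chymase were thus near the detection limit after busulfan alone, and passed the filter through the groups without busulfan.

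Kit moved by a much smaller amount. Its CPM was 22.5, 21.2 and 20.9 in AOS0 and 13.5, 13.6 and 12.2 in B+A0, with replicates close together in each group. The log2 fold change was -0.72 (SE 0.10), or 1.64-fold lower. All 5 genes were below AOS0 without overlap. Over the 12329 genes tested, 14.6% were lower without overlap. The edgeR test at an adjusted p of 0.05 called 449 genes (3.64%), 239 lower (1.94%) and 210 higher (1.7%). The 5 genes were picked with this difference in view, so nothing is read from these shares. In these bulk libraries, fewer mast cells and less RNA per mast cell cannot be told apart.

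**Figure D1:**
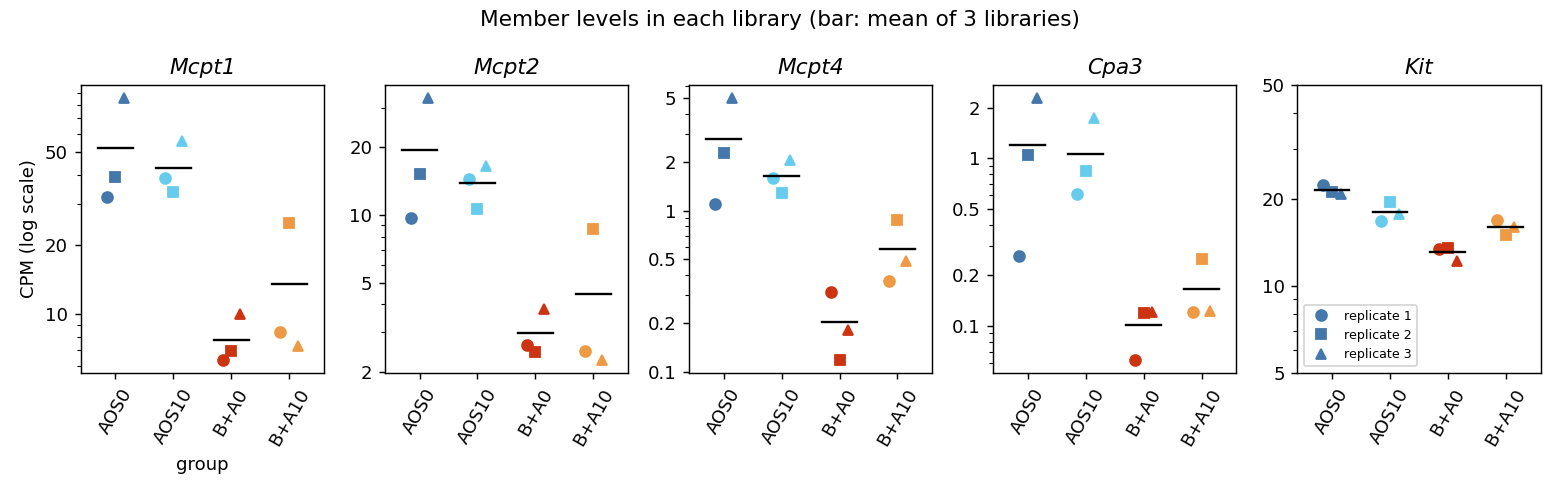
Levels of the 5 genes in CPM on log axes whose ranges differ between panels, for each library (points, shaped by replicate number) of the 4 groups, with the mean of 3 libraries as a bar. Every B+A0 point lies below every AOS0 point of its gene, and B+A10 replicate 2 is the highest B+A10 library for each protease.

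On a scale that allows comparison between genes (FPKM, fragments scaled by transcript length and library size), the mucosal chymase genes led. In AOS0 Mcpt1 was at 58.8 ± 31.3 FPKM (SD, n = 3) and Mcpt2 at 23.3 ± 14.3 FPKM. Kit followed at 4.36 ± 0.264 FPKM, then Mcpt4 at 3.3 ± 2.3 FPKM and Cpa3 at 0.933 ± 0.802 FPKM. Of the neighbours in this order, Mcpt2 and Kit were apart by their mean ± SD, whereas the other neighbouring pairs met. Within each library Mcpt1 was nevertheless above Mcpt2. In B+A0 Mcpt1 was at 8.58 ± 2.1 FPKM, Mcpt2 at 3.48 ± 0.838 FPKM, Kit at 2.58 ± 0.191 FPKM, Mcpt4 at 0.233 ± 0.107 FPKM and Cpa3 at 0.0867 ± 0.0351 FPKM, the same order of means. In AOS10 Mcpt1 averaged 47.2 ± 12.7 FPKM and Kit 3.58 ± 0.286 FPKM, and in B+A10 they averaged 14.7 ± 10.4 FPKM and 3.15 ± 0.217 FPKM (SD, n = 3 each). Mcpt2 stayed at 0.316 to 0.44 of the Mcpt1 FPKM over the 12 libraries. The ratios of the low-count proteases varied more: Mcpt4 per Mcpt1 ran from 0.0177 to 0.0704, with means of 0.0529 in AOS0 and 0.0292 in B+A0. Cpa3 per Mcpt1 ran from 0.00536 to 0.0216, with means of 0.0142 in AOS0 and 0.00985 in B+A0. Mcpt1 made up 67.7% to 74.4% of the summed protease CPM. Kit per Mcpt1, on the FPKM scale, averaged 0.0884 in AOS0, 0.0796 in AOS10, 0.314 in B+A0 and 0.287 in B+A10. All 3 B+A0 ratios, 0.218 to 0.377, were above every ratio of the groups without busulfan, which reached 0.125. The B+A10 ratios were 0.361, 0.109 and 0.392, so replicate 2 lay within the range of those groups.

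With AOS alone, the proteases overlapped with AOS0. Mcpt1 was at 38.5, 33.5 and 55.9 CPM in AOS10, inside the range of AOS0. Its log2 fold change was -0.29 (SE 0.42). Mcpt2 differed by -0.48 (SE 0.46), Mcpt4 by -0.75 (SE 0.46) and Cpa3 by -0.16 (SE 0.58) on the log2 scale. Without AOS0 replicate 3, these values became 0.26 for Mcpt1, 0.15 for Mcpt2, -0.04 for Mcpt4 and 0.69 for Cpa3, so the sign for Mcpt1, Mcpt2 and Cpa3 rested on that library. Kit was at 16.8, 19.6 and 17.8 CPM in AOS10, below every AOS0 library, with a log2 fold change of -0.25 (SE 0.10). One of the 5 genes was lower without overlap, beside 9.67% of all genes tested. The edgeR test called 0 genes in this comparison, while 768 had an unadjusted p under 0.05 and DESeq2 called 63.

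With both busulfan and AOS, the proteases were low in most libraries. In B+A10, Mcpt1 was at 8.37, 24.8 and 7.30 CPM, Mcpt2 at 2.49, 8.63 and 2.27 CPM, and Mcpt4 at 0.364, 0.875 and 0.491 CPM. Replicate 2 was the high library for each of them, and replicates 1 and 3 were near the B+A0 values for Mcpt1 and Mcpt2. Cpa3 counts in B+A10 were 2, 4 and 2. Against B+A0, the log2 fold changes were 0.79 (SE 0.48) for Mcpt1, 0.58 (SE 0.55) for Mcpt2, 1.46 (SE 0.75) for Mcpt4 and 0.65 (SE 1.19) for Cpa3. Without B+A10 replicate 2 they were 0.01 for Mcpt1, -0.31 for Mcpt2, 1.05 for Mcpt4 and 0.25 for Cpa3. For Mcpt4 the pooled counts were 28 against 10, a ratio of 2.83 with an exact 95% counting interval of 1.33 to 6.52. For Cpa3 they were 8 against 5, with a ratio of 1.61 and an interval of 0.466 to 6.27. Both intervals pool the libraries of a group and leave out the spread between them, so no call is made from them.

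Kit was at 17, 15.1 and 16 CPM in B+A10, above each B+A0 library and below each AOS0 library. The log2 fold change against B+A0 was 0.29 (SE 0.10). Mcpt4 and Kit, 2 of the 5 genes, were higher than B+A0 without overlap, beside 4.83% of all genes. No gene in the table passed the edgeR test for B+A10 against B+A0 (0 called, 1210 at an unadjusted p under 0.05, 76 by DESeq2).

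**Figure D2:**
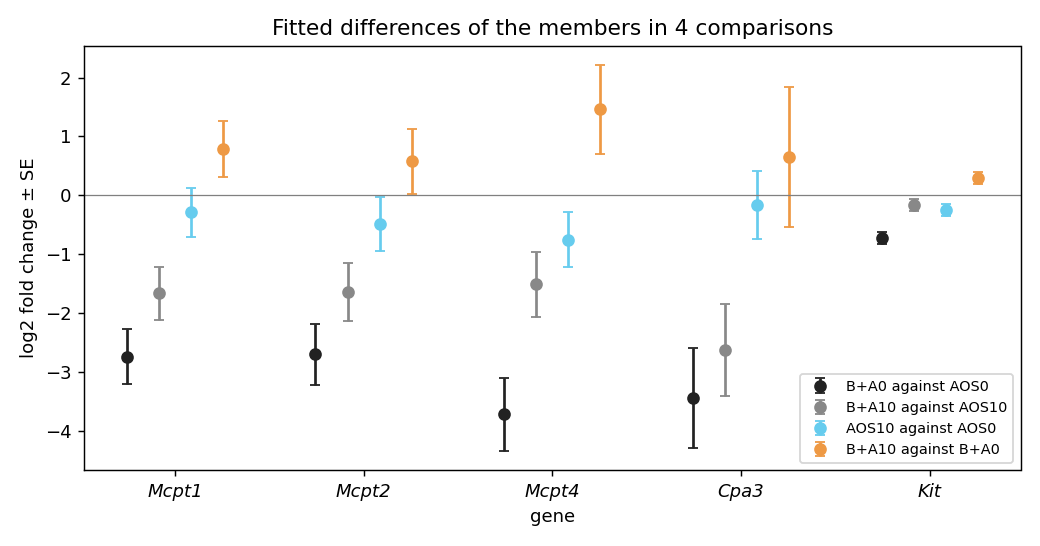
Fitted log2 fold changes with standard errors of the 5 genes (horizontal axis) in 4 comparisons. For each protease the values against the group without busulfan lie below 0, from -3.72 to -1.51, while the Kit values lie between -0.72 and 0.29.

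Busulfan was also compared within the groups given AOS. The log2 fold change of B+A10 against AOS10 was -1.66 (SE 0.45) for Mcpt1, -1.64 (SE 0.50) for Mcpt2, -1.51 (SE 0.55) for Mcpt4 and -2.63 (SE 0.78) for Cpa3. Kit differed by -0.17 (SE 0.10), and its B+A10 and AOS10 libraries overlapped. The 4 proteases were lower without overlap, beside 6.92% of all genes tested. Over all genes, edgeR called 20 (0.162%), 2 of them lower (0.0162%). Leaving out B+A10 replicate 2 moved Mcpt1 to -2.43, Mcpt2 to -2.53, Mcpt4 to -1.92 and Cpa3 to -3.02. Against AOS0, B+A10 differed by -1.95 (SE 0.45) for Mcpt1, -2.12 (SE 0.50) for Mcpt2, -2.26 (SE 0.53) for Mcpt4, -2.79 (SE 0.77) for Cpa3 and -0.42 (SE 0.10) for Kit. All 5 were lower without overlap, beside 8.6% of all genes, and edgeR called 118 genes (0.957%), 25 of them lower (0.203%). These comparisons share libraries with those above and are not separate observations.

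The fitted interaction, the AOS difference with busulfan minus that without it, was 1.08 (SE 0.64) for Mcpt1, 1.06 (SE 0.72) for Mcpt2, 2.21 (SE 0.88) for Mcpt4, 0.81 (SE 1.32) for Cpa3 and 0.54 (SE 0.14) for Kit on the log2 scale. The edgeR test called 0 genes for this term (844 at an unadjusted p under 0.05, 16 by DESeq2). Without AOS0 replicate 3 the Cpa3 value was -0.03. The Kit value ran from 0.50 to 0.61 when each library was left out in turn.

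**Figure D3:**
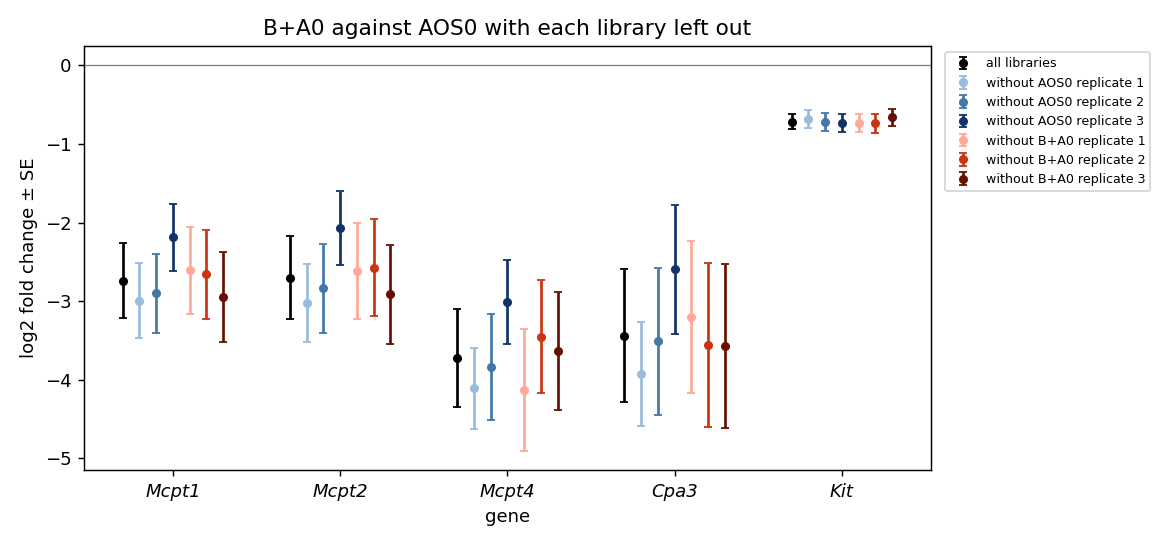
Log2 fold changes with standard errors of B+A0 against AOS0 for the 5 genes, from all libraries (black) and with each of the 6 AOS0 and B+A0 libraries left out. Every value is below 0, which was fixed because the groups do not overlap. Mcpt1 runs from -2.99 to -2.19 and Kit from -0.74 to -0.66.

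The groups did not overlap, so leaving out 1 of the 6 libraries could not change the direction of the drop in B+A0. Only its size could vary. Mcpt1 ran from -2.99 without AOS0 replicate 1 to -2.19 without AOS0 replicate 3, Mcpt2 from -3.02 to -2.07, Mcpt4 from -4.13 to -3.01 and Cpa3 from -3.93 to -2.59. Without B+A0 replicates 2 and 3 together, the log2 fold changes were -3.02 for Mcpt1, -2.87 for Mcpt2, -3.11 for Mcpt4, -4.06 for Cpa3 and -0.67 for Kit. These values rest on B+A0 replicate 1 alone, in which Cpa3 had 1 count, so the spread within B+A0 does not enter them.

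Further genes of the mast cell were examined from lists of proteases, receptors and mediators, and transcription factors. Of 27 listed, 12 were tested, and 1 was called lower and 0 higher in B+A0 against AOS0. The median log2 fold change of these 12 was -0.71, against -0.007 over all genes tested, and 11 of them were below 0. The lowest values were those of Mcpt9 and Cma2, which passed the filter through the groups without busulfan. Tpsg1, Ndst2, Stat5a and Stat5b lay close to 0, at -0.12 to -0.03. Nothing is therefore read from this median. The gene called was Srgn, which encodes serglycin, the proteoglycan core that holds proteases in granules of mast cells and of other blood cells. Srgn was at 8.09, 5.05 and 8.43 CPM in AOS0 and at 2.32, 1.61 and 0.97 CPM in B+A0. It was lower, at -2.13 (SE 0.33) on the log2 scale (edgeR, adjusted p = 0.0106), and lost the call without B+A0 replicate 3, with an adjusted p of 0.0542. In B+A10 it was at 2.73, 5.69 and 4.17 CPM, and its difference from AOS10 was -0.18 (SE 0.30, edgeR adjusted p = 0.89).

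Among the other proteases, Mcpt9 differed by -2.93 (SE 1.19) between B+A0 and AOS0 on the log2 scale (edgeR adjusted p = 0.163). Its counts were 2, 6 and 34 in AOS0 and 2, 0 and 4 in B+A0, so AOS0 replicate 3 held most of them. Cma2, a chymase gene of the same chromosome 14 cluster, had 12, 5 and 31 counts in AOS0 and 2, 1 and 5 in B+A0, with a log2 fold change of -2.71 (SE 0.92, edgeR adjusted p = 0.103). Tpsg1, a membrane-anchored tryptase gene, differed by -0.12 (SE 0.14, edgeR adjusted p = 0.653). Tpsb2 and Cma1, serine protease genes of connective tissue mast cells, were at the floor. Tpsb2 had 1 count in each group. Cma1 had 0, 0, 1 and 0 counts in AOS0, AOS10, B+A0 and B+A10. Mcpt4, also known from these cells, was above the floor, with 120 counts over AOS0 and 77 over AOS10.

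Of the receptors and mediators, Fcer1g, the signalling chain shared by IgE and IgG receptors, differed by -1.87 (SE 0.57, edgeR adjusted p = 0.0802). Rab27b, which acts in granule release, differed by -0.60 (SE 0.16, edgeR adjusted p = 0.0515). Ltc4s and Alox5, enzymes of leukotriene synthesis, differed by -0.89 and -0.82, and neither passed the edgeR test. Slc18a2, the vesicular amine transporter, differed by 0.14 and Ndst2, a heparin-modifying enzyme, by -0.11. Of the transcription factors, Stat5a differed by -0.06 and Stat5b by -0.03.

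The mast cell genes under the filter had few counts in any library. The IgE receptor chains Fcer1a and Ms4a2 had 9 and 13 counts over AOS0, 10 and 13 over AOS10, 2 and 4 over B+A0, and 2 and 4 over B+A10. Il1rl1, the IL-33 receptor, had 7, 10, 1 and 3 counts in that order of groups. Hdc, the histamine-forming enzyme, had 15, 14, 10 and 11. Gata2, singled out after its values were seen, is a transcription factor of blood progenitors and mast cells. It had 4, 5 and 6 counts in AOS0, 7, 5 and 5 in AOS10, 0 in each B+A0 library and 1 in each B+A10 library. With 3 counts put in place of 0 over B+A0, the 15 counts over AOS0 gave a 5.6-fold difference. That figure takes the AOS0 counts as exact and is not a lower bound. Mitf, a further regulator of mast cells, ran the other way with 7, 8, 12 and 16 counts. None of these genes was tested.

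A further list held growth factors, cytokines and homing receptors of mucosal mast cells. Kitl, the ligand of Kit, was at 62.9 ± 5.32 CPM in AOS0 and 63.8 ± 7.45 CPM in B+A0 (SD, n = 3 each). Its log2 fold change was 0.02 (SE 0.18, edgeR adjusted p = 0.96). Il33, an epithelial alarm cytokine, differed by 0.37 (SE 0.24, edgeR adjusted p = 0.402). Il3ra, a receptor chain for IL-3, differed by 0.36 (edgeR adjusted p = 0.291), and Itga4, an integrin chain, by -1.19 (edgeR adjusted p = 0.0863). Of 14 listed genes 7 were tested, and 3 were called lower in B+A0 against AOS0. Itgae, the alpha chain of an integrin that binds E-cadherin, was lower, at -1.97 (SE 0.35, edgeR adjusted p = 0.0165). Its partner Itgb7, which mucosal mast cells and gut lymphocytes both use, was lower, at -1.80 (SE 0.42, edgeR adjusted p = 0.0376). Tgfb1, a cytokine that induces Mcpt1 in cultured mast cells, was lower, at -1.23 (SE 0.31, edgeR adjusted p = 0.0457). All 3 calls were lost when 1 library was left out, be it AOS0 replicate 1 or 3, or B+A0 replicate 2 or 3. Intraepithelial T cells also express Itgae and Itgb7.

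Lymphocyte genes moved with the proteases between AOS0 and B+A0. Of 12 T and NK cell genes, 11 were tested and 6 were called lower, and the median of the list was -1.72 on the log2 scale. Cd3e was at -1.72 (SE 0.42, edgeR adjusted p = 0.0427) and Gzma at -2.14 (SE 0.42, edgeR adjusted p = 0.0235). The other calls were Cd3g at -1.83, Cd4 at -2.86, Cd5 at -2.20 and Cd8a at -1.69, with edgeR adjusted p from 0.0196 to 0.0347. Gzmb, at -1.44, was not called (edgeR adjusted p = 0.0578). The summed level of the list ranged over 149.2 to 258.0 CPM in AOS0, 140.3 to 178.8 in AOS10, 35.8 to 98.4 in B+A0 and 87 to 245.9 in B+A10. The 6 calls became 0 when AOS0 replicate 1 or 3, or B+A0 replicate 3, was left out, and 1 when B+A0 replicate 2 was. Of 4 general leukocyte genes, 3 were called lower by edgeR: Coro1a at -1.71, Laptm5 at -1.60 and Cd52 at -1.72. Ptprc, at -1.55, was not called (edgeR adjusted p = 0.0745). The 3 calls became 0 without each of the same 4 libraries. Their part in the protease difference was not tested.

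The same libraries can be compared protease by lymphocyte. Within B+A0, replicate 3 had the lowest T and NK cell sum, 35.8 CPM, and the highest protease sum, 14.1 CPM. In B+A10, replicates 1 and 3 had T and NK cell sums of 87 and 123.3 CPM with protease sums of 11.3 and 10.2 CPM, whereas replicate 2 was high in both, at 245.9 and 34.6 CPM. Most of the T and NK cell sum was Gzma and Gzmb, at 59.3 and 48.2 of 157.1 CPM in AOS10, so the sum mainly follows them. In B+A10 against AOS10, 8 of 11 tested genes of the list were below 0 and 3 above. They ran from -1.07 for Cd4 to 0.34 for Cd8b1 on the log2 scale. The mean protease sum in B+A10 was 31.6% of that in AOS10, while the mean T and NK cell sum was 96.8%. Without B+A10 replicate 2, these were 18.2% and 66.9%. The corresponding values for B+A0 against AOS0 were 14.6% and 28.9%, and 21.9% and 31.2% without AOS0 replicate 3. Protease per T and NK cell CPM averaged 0.351 in AOS0, 0.38 in AOS10, 0.221 in B+A0 and 0.118 in B+A10, and ran from 0.0826 to 0.141 in the B+A10 libraries. Those 3 ratios lay below all 3 AOS0 and all 3 AOS10 ratios, while the B+A0 ratios, at 0.0957, 0.171 and 0.395, overlapped with them.

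**Figure D4:**
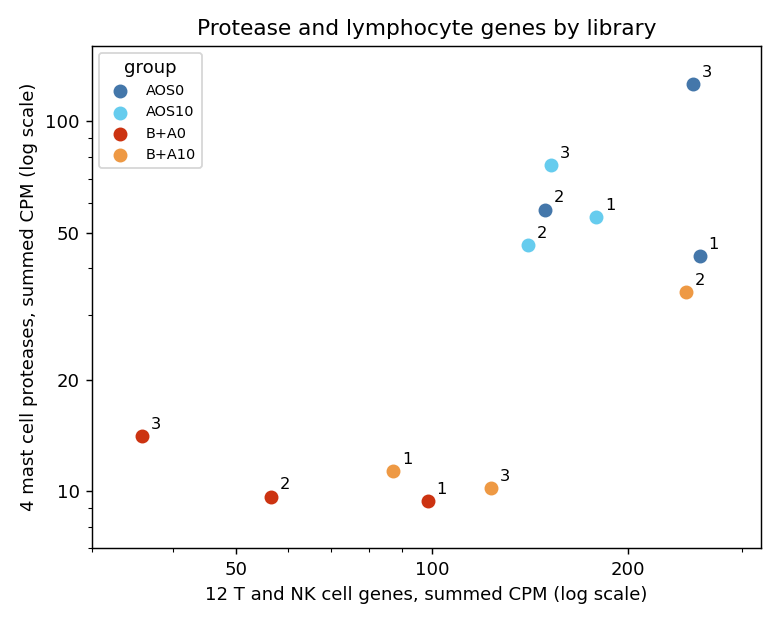
Summed CPM of the 4 proteases (vertical, log axis) against summed CPM of 12 T and NK cell genes (horizontal, log axis), 1 point per library with its replicate number. B+A10 replicates 1 and 3 lie at 11.3 and 10.2 CPM of protease, below all AOS10 libraries, which start at 46.2 CPM.

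Markers of other cell types that could carry Kit or the proteases were set beside them. For interstitial cells of Cajal, 3 of 5 genes were tested and Ano1, the chloride channel that marks them, differed by 0.07 (SE 0.20, edgeR adjusted p = 0.881) between B+A0 and AOS0. Elovl7 differed by -0.08. Prkcq, which T cells express as well, was lower, at -1.67 (SE 0.39, edgeR adjusted p = 0.0383), a call lost in 5 of 6 settings that left out 1 library, all but that without B+A0 replicate 1. The summed level of the Cajal list was 123.2 to 136.8 CPM in AOS0 and 113.9 to 127.4 CPM in B+A0. Most of it was Elovl7, so the sum mainly follows that gene. Thbs4 had at most 2 counts and Etv1 2 to 11 in a library, both under the filter. Over the groups, Etv1 had 20 counts in AOS0, 14 in AOS10, 8 in B+A0 and 11 in B+A10. For 6 epithelial genes the median difference was -0.13 on the log2 scale, with 0 called by edgeR. Their sum was lowest in B+A0 replicates 2 and 3, at 5903 and 5617 CPM against 8322 CPM in B+A0 replicate 1 and 6816 CPM or more in all other libraries. Fabp2, a fatty acid binding protein of enterocytes, was at 655.5 and 520.1 CPM in those libraries and at 1528 CPM in B+A0 replicate 1. Epcam, Cdh1 and Vil1 differed by -0.14, 0.02 and -0.11. Smtn, the smooth muscle gene that was tested, differed by -0.24. The basophil gene Mcpt8 had 5, 2, 0 and 0 counts over AOS0, AOS10, B+A0 and B+A10. Of the eosinophil genes, Siglecf differed by -0.71 (edgeR adjusted p = 0.456), and Ear2 had 0 counts in all 3 AOS0 libraries and was not called (edgeR adjusted p = 0.249). The part of these cell types in the Kit and protease levels was not tested.

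**Figure D5:**
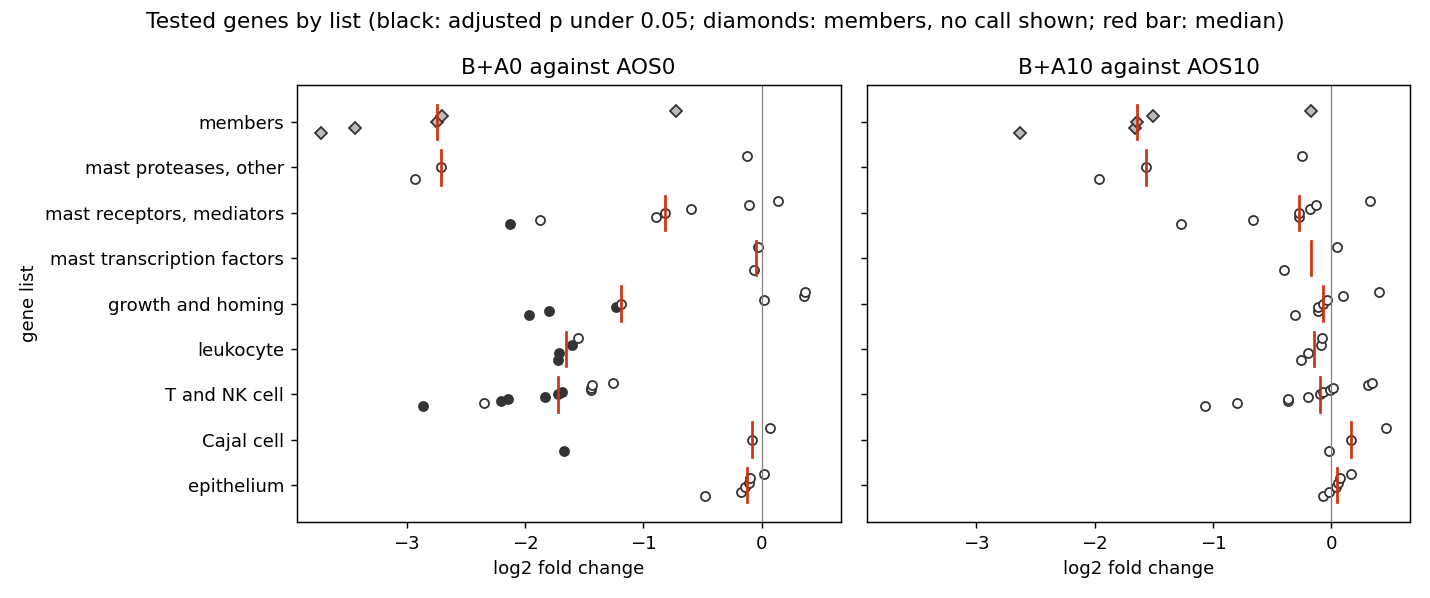
Log2 fold changes of the tested genes of each list in B+A0 against AOS0 (left) and B+A10 against AOS10 (right), with list medians as red bars; black points passed an edgeR adjusted p of 0.05, and the 5 genes chosen with these values known are grey diamonds with no call shown. T and NK cell genes have a median of -1.72 on the left and -0.10 on the right, against -2.74 and -1.64 for the 5 genes.

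Across the 12 libraries, Mcpt1 and Mcpt2 had nearly the same profile. The root mean square (RMS) difference of their centred log2 CPM was 0.17, against an RMS of 1.26 for Mcpt1 about its own mean. The other protease pairs lay between 0.42 and 0.50, and each protease lay 1.06 to 1.08 from Kit, whose own RMS was 0.27. The mean protease profile was then compared with 11263 tested genes of at least 1 CPM on average, whose median RMS difference from it was 1.24. Left out were the 5 genes, genes with only a predicted or clone name, and immunoglobulin and T cell receptor segments. The CPM limit also left out Mcpt9 and Cma2. The 6 nearest were Ifitm1 at 0.57, Hba-a1 at 0.67, Itgax and Matk at 0.68, and Ltb and Rasgrp1 at 0.69. Hba-a1, an alpha globin gene with a near-identical copy, was at 9.52, 6.30 and 27.2 CPM in AOS0, so AOS0 replicate 3 was highest for globin as for Mcpt1. The part of blood content in that library was not tested. Itgax encodes the integrin CD11c of dendritic cells and some lymphocytes, and Ltb encodes lymphotoxin beta.

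The 6 genes nearest to Kit were Zmym5 at an RMS difference of 0.11, Slc25a36, Insr and Sesn1 at 0.12, and Sash1 and Exo5 at 0.13. The median of all candidates was 0.32. Insr, the insulin receptor gene, averaged 53.6 CPM in AOS0, 50.1 in AOS10, 37 in B+A0 and 46.6 in B+A10. Slc25a36, a mitochondrial carrier, averaged 54.5, 46.5, 32.6 and 46.6 CPM in the same order. No mast cell gene was among the 6. The measure counts amplitude, so a gene that moved as much as the proteases could not come near Kit. The proteases themselves and genes under 1 CPM on average, such as Mcpt9 and Cma2, were not candidates. Nothing is read from this absence. Nearness was measured on the same libraries as the group differences, so it adds no test of them.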

How the data were processed

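Small intestine RNA of 12 libraries was measured by RNA-seq, with mm10 named as genome build in the submitters' processing notes. How reads were aligned, counted and annotated, and whether by strand, is not given in the sources used here. The authors deposited each estimated count per gene as a value that need not be whole. Between 8.9% and 9.33% per library were not whole (tolerance 1e-06), and all were rounded. The second set of values that the authors deposited was read as FPKM: over 5071 genes above 500 counts, counts divided by these values tracked library totals to within 0.149%.

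Counts were scaled by TMM (factors 0.969 to 1.047), filtered with filterByExpr and tested in 1 fit of all 12 libraries with edgeR 4.0.16 (R 4.3.3) quasi-likelihood tests, Benjamini-Hochberg adjusted over 12329 genes, threshold 0.05. Standard errors are the log2 fold change divided by the root of the F statistic. No replicate pair of a group agreed within sampling noise (chi-square per degree of freedom 8.56 to 36.6). On counts simulated for B+A0 against AOS0 (12248 genes), 82% of 2-fold and 96% of 4-fold changes were recovered, with 11 false calls. Changes were put only into genes of at least 1 CPM, and genes were drawn independently, with no shift shared within a library. The recovery therefore does not apply to genes of lower counts. Intervals on pooled counts are exact at 95%.

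The 5 genes and all lists were chosen with earlier results of these data known. Named besides the 5 genes were all tested genes of the mast cell lists, up to 4 of the highest CPM and any called gene of other marker lists, and the 6 genes nearest to the protease and Kit profiles. Alternatives were DESeq2 1.42.0, its size factors, other filters, fits of only the groups compared, a replicate block, limma 3.58.1 on log2(FPKM + 1) and log2(FPKM + 0.1), and leaving out each library. Leaving out B+A0 replicates 2 and 3 together, and the sums without single libraries, were chosen after seeing the data. Tpsab1, Mrgprb1, Mrgprb2, Il3, Il4, Il9, Prss34, Cd200r3, Prg2 and Ccr3 were not analysed here.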

Additional observations from a re-analysis of the deposited data

Results flagged for a closer look

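Kit differed with AOS in opposite directions without and with busulfan. All 3 AOS10 libraries (16.8 to 19.6 CPM) lay below all 3 AOS0 libraries (20.9 to 22.5 CPM), whereas all 3 B+A10 libraries (15.1 to 17 CPM) lay above all 3 B+A0 libraries (12.2 to 13.6 CPM). The interaction was 0.54 (SE 0.14) on the log2 scale. The pattern was not particular to Kit. Srgn, Itgax and Prkcq showed it without overlap too, with interactions of 1.95, 1.90 and 2.13. All 11 tested T and NK cell genes had interactions above 0, from 1.24 to 2.15, but their AOS10 and AOS0 libraries overlapped. The share of all genes with the pattern of Kit was not counted, so how common it is cannot be said. Of all genes tested, 9.67% were lower without overlap in AOS10 against AOS0. In B+A10 against B+A0, 4.83% were higher without overlap. The edgeR interaction test over all genes called 0 genes, so Kit was not called. Kit was chosen with these levels known, and no further test of the difference was made.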

How the results depend on the processing

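The log2 fold changes of the 5 genes moved by less than the spread between replicates in 429 of 455 alternatives and by more in 26. None changed sign in B+A0 against AOS0, where the groups did not overlap, so the kept sign adds no support. When only the groups compared entered the fit, Cpa3 had too few counts to be fitted in B+A0 against AOS0. The same held for Cpa3 in B+A10 against AOS0 and against AOS10, and for both Mcpt4 and Cpa3 in B+A10 against B+A0. The count of all genes called in B+A0 against AOS0, 449, was 995 by DESeq2, 241 from only the groups compared, 193 with the replicate block and 0 without B+A0 replicates 2 and 3; leaving out 1 library gave 21 (B+A0 replicate 3 left out) to 1099 (B+A0 replicate 1 left out). The split of 239 lower to 210 higher became 322 to 133 with limma on log2(FPKM + 1) and 345 to 137 on log2(FPKM + 0.1). For AOS10 against AOS0, 0 called became 63 by DESeq2, 8 with no filter, 62 from only the groups compared, 15 with the block and 0 to 13 leaving out 1 library. For B+A10 against B+A0, 0 became 76 by DESeq2, 5 with no filter, 4 with the block and 0 to 51 leaving out 1 library. For B+A10 against AOS10, 20 became 137 by DESeq2, 40 with no filter, 0 from only the groups compared, 3 with the block, 2 and 7 with limma on log2(FPKM + 1) and log2(FPKM + 0.1), and 0 to 61 leaving out 1 library. For B+A10 against AOS0, 118 became 459 by DESeq2, 18 from only the groups compared and 12 to 763 leaving out 1 library. For the interaction, 0 became 16 by DESeq2 and 0 to 1 leaving out 1 library. The 1 further mast cell gene called in B+A0 against AOS0 became 4 by DESeq2, 2 with no filter, 2 with limma on log2(FPKM + 1), 0 without B+A0 replicates 2 and 3, and 0 to 3 leaving out 1 library; in B+A10 against B+A0, 0 became 1 by DESeq2. The cause of these changes was not tested. Replicate numbers did not pair the libraries: deviations of the 18 same-numbered pairs correlated at -0.162 to 0.173, 1 of them over 0.1, and 2 of 12 libraries correlated best with their own number. The low counts of Mcpt4 and Cpa3 limit what can be said of them in B+A0 and B+A10.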
